A study of Rattus norvegicus with 12 samples.

Results

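The genes Cd79a, Cd79b, Ms4a1, Cd22, Pax5 and Bank1, which mark B cells or build and tune their antigen receptor, were followed through whole blood of 2 rat strains. They were taken by symbol, and 5 of the 6 had a row among the 17337 genes counted; Cd79a had none under that symbol and was not analysed here. The libraries came from CRS WKY, NS WKY, CRS F344 and NS F344 males, with 3 libraries in each of the 4 groups and 12 in all. WKY (Wistar Kyoto) and F344 (Fischer) are rat strains. CRS is chronic restraint stress, given for 2 hours a day over 2 weeks, and NS rats were left in the home cage. Rats of every group were 70 to 90 days old when first trained in contextual fear conditioning, spent 4 weeks at home before the stress period, had a second conditioning test, and were decapitated 24 hours after it. The labels do not state that each library is a separate rat, and p-values then speak only of variation among libraries, which may be technical.

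B cells sense antigen through a surface antibody that is bound to CD79A and CD79B, whose cytoplasmic tails start the signal. CD22 and the adaptor BANK1 tune that signal, MS4A1 (CD20) is a surface protein of mature B cells, and PAX5 is the transcription factor that keeps cells committed to the B lineage. In blood, B cells are a minority of the white cells, which are themselves greatly outnumbered by red cells. In bulk blood, fewer B cells and less RNA per B cell cannot be told apart.

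Counts for genes were 1691956 to 3846263 per library, but only 90796 to 419789 of these lay outside the 3 most abundant features. Those features were LOC310926, Rn5-8s and LOC257642, with 44.0%, 35.7% and 11.5% of all gene counts. Together they took 88.9% to 94.6% of the gene counts of a library. A further 78.3% to 83.6% of all reads in a library were recorded as ambiguous between features and belong to no gene. Levels are given as CPM, counts relative to library size with TMM scaling, a correction for library composition, and 1 count was worth 0.202 to 1.14 CPM. NS F344 replicates 2 and 3 stood apart, with TMM factors of 0.626 and 0.519, against 0.821 to 1.53 in the other libraries. For values that turned or moved most without both, the value without them is given beside. Red cell precursor genes, such as those for haemoglobin, summed to 21142 to 42966 CPM, and none of the 11 with a row was at 0 throughout a group. The B cell genes together received 573 counts over the 12 libraries, from 13 to 93 a library. Cd79b had 192, Cd22 183, Bank1 112, Pax5 51 and Ms4a1 35. Intervals on such counts cover counting error only, because reads are not independent molecules.

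Of the 6 genes, 3 were matched in the RefSeq promoter table for build GRCr8, among them Cd22 and Bank1, the inhibitory receptor and the adaptor. Their promoters are shown because both genes have values and their fold changes within F344 had opposite signs. Neither fold change passed the threshold of 0.05 used below. Without NS F344 replicates 2 and 3 both were positive, and within WKY both were negative. Each runs from 250 bases before to 50 bases after the gene start, on the minus strand, at chr1:95259681-95259980 for Cd22 and chr2:227473666-227473965 for Bank1. The files were made on build rn6, so these coordinates are not those of the counts. Capitals mark matches to motifs of B cell transcription factors.
Cd22: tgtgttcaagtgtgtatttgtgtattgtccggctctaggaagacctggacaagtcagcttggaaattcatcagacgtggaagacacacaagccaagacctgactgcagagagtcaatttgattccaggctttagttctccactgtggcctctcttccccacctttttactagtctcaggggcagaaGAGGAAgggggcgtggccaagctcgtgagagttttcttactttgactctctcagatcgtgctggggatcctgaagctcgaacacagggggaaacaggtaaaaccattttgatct
Bank1: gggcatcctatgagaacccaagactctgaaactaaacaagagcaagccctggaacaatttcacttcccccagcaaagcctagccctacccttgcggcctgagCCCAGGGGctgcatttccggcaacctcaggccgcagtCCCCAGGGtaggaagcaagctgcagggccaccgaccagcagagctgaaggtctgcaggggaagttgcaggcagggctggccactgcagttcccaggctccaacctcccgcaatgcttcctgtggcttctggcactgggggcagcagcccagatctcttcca
The motifs searched, on both strands, were the octamer ATGCAAAT, the EBF core CCCNNGGG, the PU.1 core GAGGAA, the E-box CAGCTG and the TATA box TATAAA. Cd22 held 1 PU.1 core, 64 bases before the start, and Bank1 held 2 EBF cores, 148 and 111 bases before it. The other motifs were not among the letters of these windows. Of the 33469 promoters of this length, 27.6% held the PU.1 core, 12.4% the EBF core, 1.78% the octamer, 15.1% the E-box and 14.2% the TATA box. A match is a run of letters, not evidence of binding.

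Cd79b, the signalling chain of the receptor that was measured, was the most counted of the 5 genes. It stood at 6.11, 5.23 and 0.986 CPM in CRS WKY, at 4.84, 6.55 and 3.87 CPM in NS WKY, at 6.66, 6.49 and 5.07 CPM in CRS F344, and at 6.07, 1.22 and 1.14 CPM in NS F344. All groups overlapped in each comparison, and a single library was low in CRS WKY and 2 in NS F344. The log2 fold change for CRS over NS was 0.72 in F344 (SE 0.494, 95% interval -0.28 to 1.72; edgeR quasi-likelihood test, adjusted p = 0.966). In WKY it was -0.30 (SE 0.469, interval -1.25 to 0.65; edgeR adjusted p = 0.975). Without CRS WKY replicate 3 the WKY value was 0.17. Without NS F344 replicate 1 the F344 value was 2.33 (edgeR adjusted p = 0.228), and without NS F344 replicates 2 and 3 it was 0.06.

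Cd22, a sialic acid binding receptor that recruits phosphatases to the B cell receptor, had a narrower spread. It stood at 3.31, 6.11 and 2.96 CPM in CRS WKY, at 4.37, 5.57 and 3.87 CPM in NS WKY, at 6.06, 4.44 and 6.70 CPM in CRS F344, and at 4.41, 3.65 and 3.43 CPM in NS F344. The CRS and NS groups of F344 did not overlap, although the lowest CRS library and the highest NS library were nearly equal, and they overlapped both without TMM scaling and per 100000 counts outside the 3 most abundant features. The other comparisons overlapped. In F344 the log2 fold change for CRS over NS was 0.54 (SE 0.412, 95% interval -0.30 to 1.37; edgeR adjusted p = 0.987). In WKY it was -0.21 (SE 0.398, interval -1.02 to 0.60; edgeR adjusted p = 0.975). Without NS F344 replicates 2 and 3 the F344 value was 0.47.

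Ms4a1, which encodes CD20, had at most 8 counts in a library and did not pass the low count filter. Its levels were 1.02, 1.31 and 0 CPM in CRS WKY, 0.691, 0.983 and 1.16 CPM in NS WKY, 0.404, 0.683 and 0.812 CPM in CRS F344, and 2.21, 1.22 and 1.14 CPM in NS F344. The library at 0 allows a level of up to 0.986 CPM, the worth of 3 counts. The CRS libraries of F344 all lay below the NS libraries, with 8 counts over the CRS group and 11 over the NS group, a scaled ratio of 0.349 (95% counting interval 0.122 to 0.952). NS F344 replicate 1 alone, at 2.21 CPM, also lay above all 3. Without TMM scaling these groups overlapped. The two-sided exact permutation test gave p = 0.1, the smallest that 3 libraries against 3 allow. In WKY the groups overlapped, with 7 counts after CRS and 9 without stress (ratio 0.838, counting interval 0.265 to 2.53).

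Bank1, a scaffold that links the B cell receptor to kinases and calcium release, varied more within groups than between them. Its levels were 3.06, 0.436 and 3.61 CPM in CRS WKY, 2.53, 5.90 and 1.94 CPM in NS WKY, 1.21, 2.73 and 3.86 CPM in CRS F344, and 2.48, 3.05 and 8.01 CPM in NS F344. All comparisons overlapped. The highest value came from 7 counts in NS F344 replicate 3, the shallowest library, and the lowest from 1 count in CRS WKY replicate 2. The log2 fold change for CRS over NS was -0.53 in F344 (SE 0.600, 95% interval -1.74 to 0.69; edgeR adjusted p = 0.996). It was -0.45 in WKY (SE 0.567, interval -1.60 to 0.70; edgeR adjusted p = 0.975). Without NS F344 replicates 2 and 3 the F344 value was 0.12, and without NS WKY replicate 2 the WKY value was 0.16.

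Pax5, the B lineage commitment factor, was low, with at most 12 counts in a library, and did not pass the low count filter. Its levels were 0.764, 0.436 and 0.657 CPM in CRS WKY, 2.07, 1.31 and 2.32 CPM in NS WKY, 0.808, 2.05 and 2.44 CPM in CRS F344, and 0.827, 0 and 1.14 CPM in NS F344. CRS WKY lay below both NS WKY and CRS F344 with no overlap, NS WKY lay above NS F344 with no overlap, and the F344 groups overlapped. NS F344 replicate 1 alone, at 0.827 CPM, lay below NS WKY and inside the range of CRS F344. The 3 separations held without TMM scaling and per 100000 counts outside the 3 most abundant features. Without TMM scaling CRS F344 also lay wholly above NS F344, but the nearest libraries, with 4 and 3 counts, were nearly equal. The library at 0 allows up to 1.83 CPM, which is above the 1.31 CPM of the lowest NS WKY library. Summed over groups, CRS WKY had 6 counts and NS WKY 19 (scaled ratio 0.340, 95% counting interval 0.111 to 0.886), while CRS F344 had 22 and NS F344 4 (ratio 2.64, counting interval 0.896 to 10.5). WKY over F344 gave a ratio of 2.92 without stress (counting interval 0.972 to 11.8) and of 0.377 after CRS (0.125 to 0.959). Each of the 3 comparisons without overlap had a two-sided exact permutation p = 0.1, the smallest 3 against 3 allow, and CRS over NS in F344 had p = 0.3. Averaged over both strains, the difference for CRS minus NS was -0.03 on the log2 scale (two-sided exact permutation p = 0.955, where 0.005 is the smallest possible). These p-values are unadjusted.

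**Figure D1:**
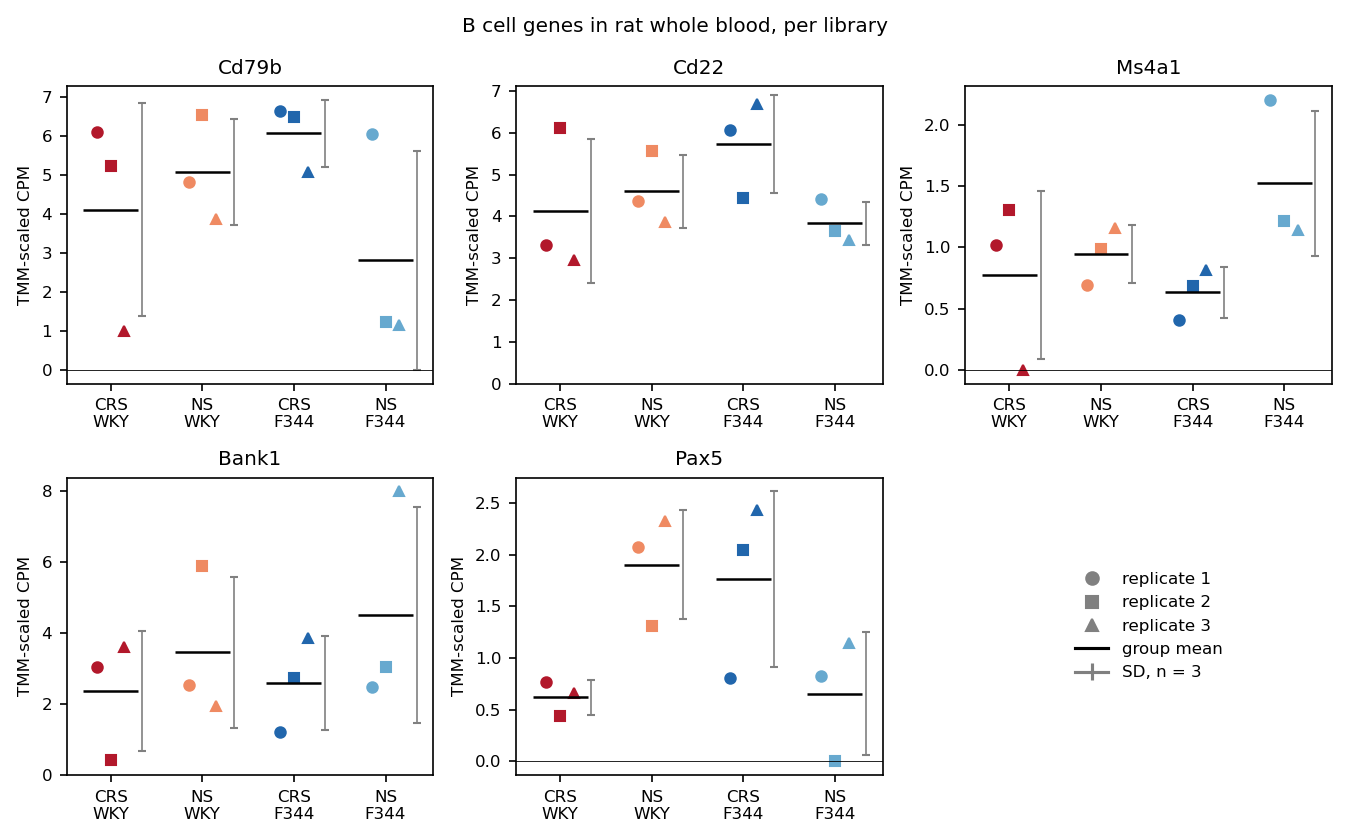
TMM-scaled CPM of the 5 measured B cell genes in each library, by group, with the group mean as a line and the SD as a grey bar (n = 3). Pax5 lies between 0.436 and 0.764 CPM in CRS WKY and between 1.31 and 2.32 CPM in NS WKY, and most other groups overlap.

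Whether the 3 libraries of a group lay wholly on 1 side of the other group was also counted over all genes with at least 35 counts in all, the total of Ms4a1; this minimum was set after the data were seen. In F344, 2 of the 5 genes, Cd22 and Ms4a1, did not overlap between CRS and NS, against 11.8% of 5370 genes. In WKY it was 1 of 5, Pax5, against 9.63%. Between strains, Pax5 was again the 1 gene, against 12.8% of genes without stress and 16.5% after CRS. A single gene is 1 of 5 here, and no test was made of these shares.

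Cd79b, Cd22 and Bank1, 3 of the 6 genes, were among the 2781 genes that passed the filter and were tested by edgeR with adjustment over all of them. None passed the threshold of 0.05 in any of the 7 comparisons, and their adjusted p ran from 0.643 to 0.996. Their smallest unadjusted p was 0.145, and neither DESeq2 nor limma-voom called any of them. For CRS over NS averaged over strains, 0 of 3 passed where 0.036% of all tested genes did. For CRS over NS it was 0 of 3 against 0% in F344 and 0 of 3 against 0% in WKY. At an unadjusted p under 0.05, edgeR had 130 genes (4.67%) in F344 and 161 (5.79%) in WKY, none of them Cd79b, Cd22 or Bank1. For WKY over F344, 0 of 3 passed against 3.74% of all genes averaged over treatments, 0.683% without stress and 1.29% after CRS. For the strain difference in the response to CRS, 0 of 3 passed against 0%, with 106 genes (3.81%) at an unadjusted edgeR p under 0.05.

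Averaged over both strains, the log2 fold changes for CRS over NS were 0.21 for Cd79b (95% interval -0.48 to 0.91), 0.16 for Cd22 (-0.42 to 0.75) and -0.49 for Bank1 (-1.32 to 0.35). Their median was 0.16, against 0.00 over all tested genes. Averaged over treatments, WKY over F344 was -0.03 for Cd79b (-0.72 to 0.66), -0.17 for Cd22 (-0.75 to 0.42) and -0.08 for Bank1 (-0.92 to 0.76). The sign for Cd79b and for Bank1 turned under other settings. The intervals of Cd79b and Cd22 leave out a log2 change of 1, a doubling or halving, in both averages; that of Bank1 leaves it out between strains but not for a fall after CRS. For Cd79b this rests on NS F344 replicate 1, without which CRS over NS averaged over both strains was 1.02 (edgeR adjusted p = 0.397).

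The strain difference was also taken at each treatment. After CRS, WKY over F344 was -0.54 for Cd79b (SE 0.450; edgeR adjusted p = 0.720) and -0.54 for Cd22 (SE 0.379; edgeR adjusted p = 0.643). Without stress it was 0.48 for Cd79b (SE 0.513; edgeR adjusted p = 0.856) and 0.21 for Cd22 (SE 0.432; edgeR adjusted p = 0.928). The Cd79b value without stress was -0.20 without NS F344 replicates 2 and 3, and 2.08 without NS F344 replicate 1. How far the response to CRS differed between strains, WKY minus F344, was tested directly. It was -1.02 for Cd79b (SE 0.682, 95% interval -2.40 to 0.37; edgeR adjusted p = 0.993), -0.75 for Cd22 (SE 0.574, interval -1.91 to 0.41; edgeR adjusted p = 0.993) and 0.08 for Bank1 (SE 0.831, interval -1.60 to 1.77; edgeR adjusted p = 0.993). Without CRS WKY replicate 3 the difference in response of Cd79b was -0.56, and without NS F344 replicates 2 and 3 it was -0.35; without NS F344 replicate 1 it was -2.61. Without CRS WKY replicate 3, WKY over F344 after CRS was -0.07 for Cd79b. These comparisons share libraries, so their signs are not independent of each other.

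In a fit of all 15012 genes with a count, without the low count filter, all 5 genes had a value. Pax5 had a log2 fold change for CRS over NS of 1.68 in F344 and -1.49 in WKY, and its difference in response was -3.17 (SE 1.16; edgeR unadjusted p = 0.00618, adjusted p = 1.00). The fitted values of Pax5 rest on 4 counts in NS F344 and 6 in CRS WKY. In the same fit Cd79b had an unadjusted p of 0.0270 for CRS over NS in F344 (log2 1.03, edgeR adjusted p = 0.855). Ms4a1 had a log2 fold change of -1.07 in F344 and -0.25 in WKY (edgeR adjusted p = 0.855 and 1), and no B cell gene passed.

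**Figure D2:**
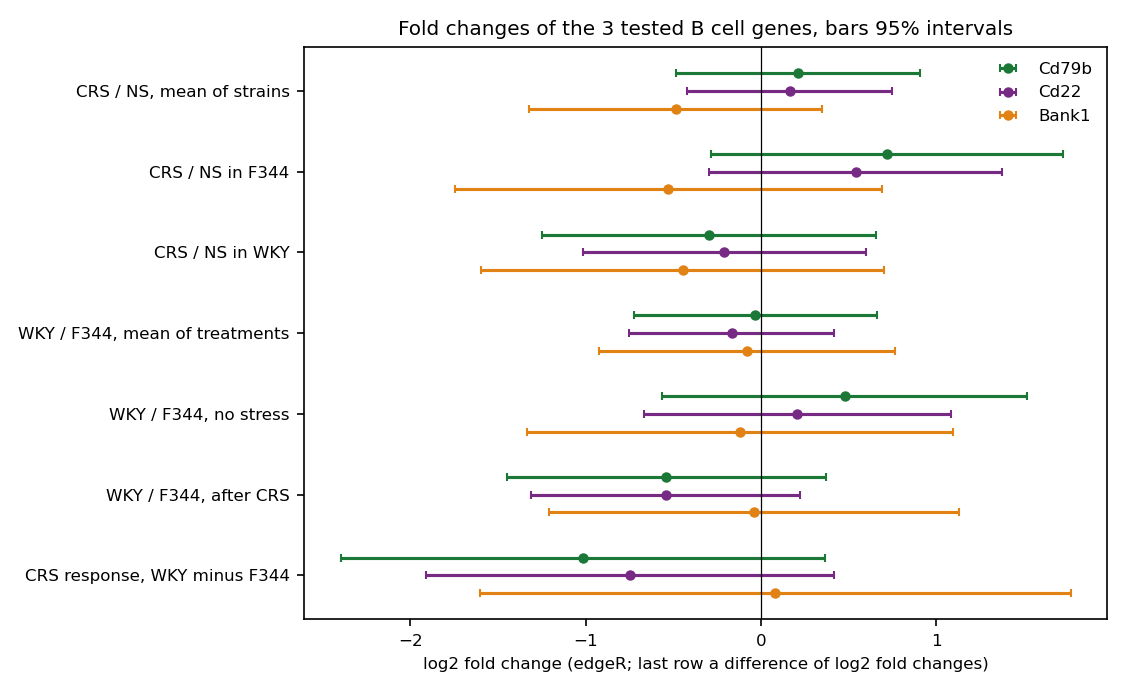
Log2 fold changes of Cd79b, Cd22 and Bank1 in the 7 comparisons with 95% intervals from the edgeR fit; the lowest row is a difference of log2 fold changes. All 21 intervals include 0.

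Summed over the 5 genes, the B cell signal was 14.3, 13.5 and 8.21 CPM in CRS WKY, 14.5, 20.3 and 13.2 CPM in NS WKY, 15.1, 16.4 and 18.9 CPM in CRS F344, and 16.0, 9.14 and 14.9 CPM in NS F344. The sum averaged 12.0 ± 3.30 CPM in CRS WKY against 16.0 ± 3.80 CPM in NS WKY, and 16.8 ± 1.90 CPM in CRS F344 against 13.3 ± 3.68 CPM in NS F344 (SD, n = 3 each). CRS and NS libraries overlapped in both strains. CRS WKY lay wholly below CRS F344 on this scale but overlapped it without TMM scaling and in the shares that follow. As reads per 100000 counts outside the 3 most abundant features, the sum ran from 8.53 to 17.5 in CRS WKY against 18.1 to 28.0 in NS WKY, and from 17.0 to 22.2 in CRS F344 against 7.67 to 26.3 in NS F344. On this scale, which sets aside the 3 most abundant features but has no TMM scaling, the WKY groups did not overlap. The 13 counts of NS F344 replicate 3 gave 14.3 per 100000 with an exact binomial 95% interval of 7.62 to 24.5, which spans most of the other libraries.

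**Figure D3:**
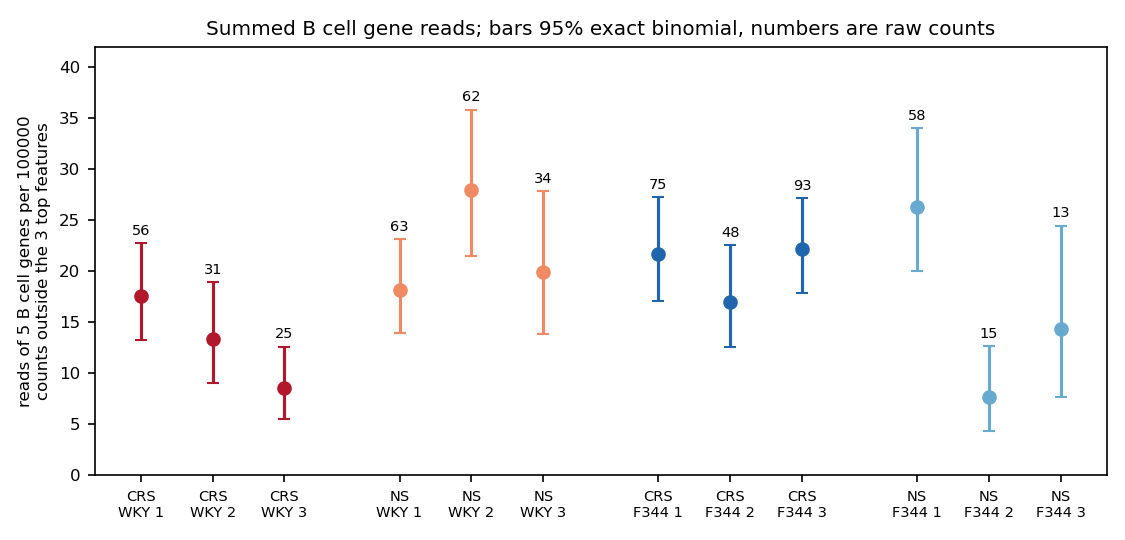
Reads of the 5 B cell genes per 100000 counts outside the 3 most abundant features in each library, with exact binomial 95% intervals for counting error and the raw count above each. NS F344 replicates 2 and 3 have 15 and 13 counts, against 58 in replicate 1.

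The wider B cell program was described from 4 lists chosen with earlier results of these data known, and no member of them passed in any of the 7 comparisons. Of 28 genes of B cell receptor signalling, 17 were tested. Their median log2 fold change was 0.12 for CRS over NS in F344, with 12 of 17 positive, and -0.11 in WKY, with 6 of 17 positive. Without NS F344 replicates 2 and 3 the F344 median was -0.0029, with 10 of 20 tested genes positive. Over all tested genes of the full fit the medians were 0.01 and 0.02, with 51.0% and 51.2% positive. Syk, the kinase that docks on the CD79 tails, had a difference in response of -1.06 (SE 0.501, edgeR adjusted p = 0.993), and of -0.41 without NS F344 replicates 2 and 3. Dapp1, an adaptor downstream of PI3K, had a log2 value of 1.10 and Prkcb, a kinase C isoform of the pathway, one of -0.79 for CRS over NS in WKY (edgeR adjusted p = 0.787 for both). For WKY over F344 averaged over treatments the list had 14 of 17 positive and a median of 0.22, against 49.1% and -0.01 over all tested genes. Without those 2 libraries it had 13 of 20 positive and a median of 0.11. The other B cell lists did not share this lean in the full fit. Transcription factors had 3 of 9 positive and a median of -0.14, and survival and homing receptors 2 of 9 and -0.25. All 3 tested members were negative in the same comparison. Within the receptor signalling list, the smallest p-values for WKY over F344 averaged over treatments were those of 2 genes. Pik3ap1, an adaptor for PI3K that myeloid cells also use, stood at log2 0.74 (SE 0.286, edgeR adjusted p = 0.168) and Lyn, a kinase shared with myeloid cells, at 0.48 (edgeR adjusted p = 0.274).

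Of 18 B cell transcription factors, 9 were tested, with medians of -0.16 in F344 and -0.26 in WKY for CRS over NS. Klf2, a regulator of lymphocyte trafficking, had a log2 value of 1.19 for WKY over F344 without stress (SE 0.419, edgeR adjusted p = 0.227) and a difference in response of -1.57 (SE 0.561, edgeR adjusted p = 0.993). Without NS F344 replicates 2 and 3 these Klf2 values were 0.81 and -1.19. Irf8, used by B cells, monocytes and dendritic cells, had a difference in response of -1.65 (SE 0.690, edgeR adjusted p = 0.993), and of -1.38 without the same libraries. Ebf1, which specifies the B lineage together with Pax5, was not tested, at 13 counts in CRS WKY and 13 in NS WKY, 9 in CRS F344 and 3 in NS F344. Of 18 survival and homing receptors, 9 were tested, with medians of -0.32 in F344 and -0.07 in WKY. S1pr1, the receptor by which lymphocytes leave lymphoid organs, had a log2 value of -0.85 for CRS over NS in F344 (edgeR adjusted p = 0.918). Ltb, a lymphotoxin chain made by B and T cells, had one of -0.86 for WKY over F344 averaged over treatments (edgeR adjusted p = 0.225). Of 18 plasma cell and antibody genes, 9 had a row and 1 was tested, Txndc5, a folding enzyme of the secretory pathway, at log2 1.27 for CRS over NS in WKY (edgeR adjusted p = 0.787). Mzb1, a plasma cell chaperone, had 2 counts in CRS WKY, 2 in NS WKY, 5 in CRS F344 and 1 in NS F344.

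Markers of other white cells are given beside these values, and their part in them was not tested. MHC class II genes, which B cells, monocytes and dendritic cells use to present antigen, summed to 33.5 to 55.0 CPM in CRS WKY against 51.5 to 90.4 CPM in NS WKY, and to 63.2 to 73.1 CPM in CRS F344 against 30.9 to 77.5 CPM in NS F344. Per 100000 counts outside the 3 most abundant features, CRS WKY lay wholly below NS WKY, at 34.8 to 67.7 against 78.0 to 125. Without TMM scaling the WKY groups overlapped, and the F344 groups overlapped on every scale. The 5 plasmacytoid dendritic cell genes with a row, 2 of which are also on the transcription factor list, summed to 5.35 to 6.98 CPM in CRS WKY against 9.83 to 10.5 CPM in NS WKY, and to 8.52 to 10.1 CPM in CRS F344 against 2.44 to 6.89 CPM in NS F344. For these dendritic cell genes neither pair overlapped, and the differences ran opposite ways in the strains. The F344 difference rests on few reads: the 5 genes together had 4 and 3 counts in NS F344 replicates 2 and 3, and 25 in replicate 1. Without TMM scaling and per 100000 counts outside the 3 most abundant features, the WKY groups still did not overlap and the F344 groups did. NS F344 replicate 1 had the highest sum of that group on both lists, 77.5 CPM for MHC class II, above all CRS F344 libraries, and 6.89 CPM for the dendritic cell genes, below them. T cell genes summed to 48.4 to 61.6 CPM in CRS WKY, 48.8 to 59.9 CPM in NS WKY, 69.6 to 79.5 CPM in CRS F344 and 71.3 to 84.9 CPM in NS F344, so the strains did not overlap and CRS and NS did; on both other scales the strains overlapped. Lef1, a T cell transcription factor, was lower in WKY than in F344 averaged over treatments (log2 -1.08, edgeR adjusted p = 0.0381), a call lost without NS F344 replicates 2 and 3 (-0.96, edgeR adjusted p = 0.231) and in 9 of the 12 fits that leave out 1 library. Monocyte genes summed to 130 to 176 CPM in CRS WKY, 128 to 145 CPM in NS WKY, 84.0 to 93.8 CPM in CRS F344 and 70.1 to 75.8 CPM in NS F344. Without TMM scaling the monocyte sums of the strains overlapped after CRS, at 106 to 205 CPM in WKY against 78.7 to 128 CPM in F344. They did not overlap without stress, or per 100000 counts outside the 3 most abundant features. Lyz2, a lysozyme of monocytes and neutrophils (log2 1.00, edgeR adjusted p = 0.00112), and Cybb, a subunit of the phagocyte oxidase (log2 1.73, edgeR adjusted p = 0.000859), were higher in WKY than in F344 averaged over treatments. Of the 6 tested monocyte genes, 5 were positive and 1 negative in that comparison, and only these 2 passed. Lyz2 made up most of each monocyte sum, with means of 119 CPM in CRS WKY, 98.4 CPM in NS WKY, 61.3 CPM in CRS F344 and 47.8 CPM in NS F344. Of the 11 NK cell genes, 1 to 2 were at 0 throughout a group, and 2 of the 13 neutrophil genes in each group, not the same pair throughout. No gene of the MHC class II, T cell or monocyte lists was at 0 throughout a group.

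Among the 5 genes, levels followed each other weakly over the 12 libraries. Pearson's r of log2 CPM was 0.65 for Cd79b and Cd22 (Spearman's rho 0.59), -0.40 for Cd79b and Bank1 and -0.39 for Cd22 and Bank1. The other 7 pairs ran from -0.09 to 0.42. Without NS F344 replicates 2 and 3, r was 0.58 for Cd79b and Cd22, -0.14 for Cd79b and Bank1 and -0.27 for Cd22 and Bank1. Cd79b and Ms4a1 then moved from 0.28 to 0.65, Cd79b and Pax5 from 0.42 to 0.17, and Ms4a1 and Pax5 from -0.09 to 0.04. The genes most like the mean z-score of Cd79b, Cd22 and Bank1, among 1088 genes at 5 CPM or more, were Cd74, the MHC class II chaperone (r = 0.79, rho = 0.90), Ciita, the MHC class II transactivator (r = 0.77, rho = 0.76), Rnpepl1 (r = 0.76, rho = 0.83), Evl, an actin regulator (r = 0.74, rho = 0.71), and Otud5, a deubiquitinase (r = 0.73, rho = 0.60). The median r over the 1088 genes was 0.05 and the 95th percentile 0.48. Over the 10 libraries without NS F344 replicates 2 and 3, r for the 5 named genes ran from 0.74 to 0.91. They were picked as the highest over all 12 libraries and not ranked anew, so high values over these 10 add no support. These values describe 12 libraries that share depth and composition: the score also had r = 0.53 with the log TMM factor and 0.34 with the log of counts outside the 3 most abundant features.

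Cd74 stood at 27.0, 25.7 and 15.1 CPM in CRS WKY, 32.9, 48.2 and 25.5 CPM in NS WKY, 37.8, 28.3 and 34.1 CPM in CRS F344, and 36.4, 14.6 and 10.3 CPM in NS F344. After CRS the WKY libraries lay below the F344 libraries with TMM scaling, by 27.0 against 28.3 CPM at the nearest. These groups overlapped without TMM scaling and as shares of counts outside the 3 most abundant features. CRS WKY replicate 1 had 106 Cd74 counts, among 3366401 for genes and 319116 outside those features. CRS F344 replicate 2 had 83, among 3125861 and 281942. NS F344 replicates 2 and 3 were low, as for Cd79b. The difference in response of Cd74, WKY minus F344, was -1.24 (SE 0.486, edgeR unadjusted p = 0.0149, adjusted p = 0.993). NS F344 replicate 1 lay inside the range of CRS F344, and without replicates 2 and 3 the difference was -0.59 (edgeR unadjusted p = 0.240) and CRS over NS in F344 was -0.05.

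**Figure D4:**
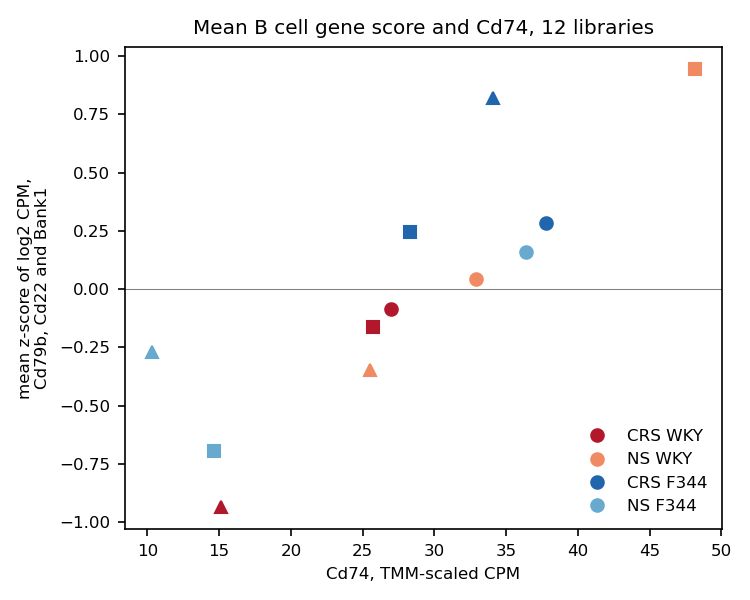
Mean z-score of log2 CPM of Cd79b, Cd22 and Bank1 against the TMM-scaled CPM of Cd74 in each of the 12 libraries, coloured by group, with a marker shape per replicate number. The score is highest where Cd74 is highest, in NS WKY replicate 2 at 48.2 CPM, and lowest in CRS WKY replicate 3 at 15.1 CPM. Cd74 is lower still in NS F344 replicates 2 and 3, at 14.6 and 10.3 CPM, where the scores are -0.70 and -0.27.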

How the data were processed

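Whole blood RNA was sequenced by Ion Proton from tubes that stabilise RNA, per the labels' protocols. The deposited files hold whole-number read counts per gene symbol, 1 file a library, not normalised. Build rn6, Cufflinks 2.2.1, TopHat2 2.1.0 and cutadapt 1.14 appear, with no role, in the submitters' processing notes; no source used here names the read counter, the annotation or the strand option. In each file 5 rows name no gene; they took 80.9% to 86.6% of counts and stayed out of library sizes and tests. No 2 of the 66 library pairs held identical values.

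Counts of all 12 libraries entered 1 edgeR 4.0.16 quasi-likelihood fit (R 4.3.3) of 4 group means, with TMM scaling and filterByExpr (minimum count 10, leaving 2781 genes); Benjamini-Hochberg adjustment ran over all of them. SE and intervals of 95% were derived from the F statistic. Genes below the filter were compared by exact permutation of log2 CPM (prior count 2). Alternatives were DESeq2 1.42.0, limma-voom (limma 3.58.1), other scalings and filters, the 2 groups compared alone, a replicate block and leaving out libraries. The fit was also run on data simulated for genes past the filter, and no result given here rests on that run. Outside the members, a gene could be named if past 0.05 over all tested genes, if among the 2 smallest p-values per direction of its list in a comparison, if on a short list always given (Ebf1, Mzb1 and Cd74; another gene of it is not reported here), or if among the 5 highest correlations with the B cell genes. Members, lists and settings were chosen with earlier results of these data known.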

Additional observations from a re-analysis of the deposited data

How the results depend on the processing

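No B cell gene passed 0.05 in any of the 144 recomputed comparisons, over 21 settings. Of 436 recomputed values of single genes, 398 kept their direction and 38 changed it; none of these values was past the threshold before or after. With a minimum count of 20 Bank1 did not pass the filter and has no value.

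Leaving out 1 library at a time moved the log2 fold change of Cd79b from -0.0295 to 1.02 for CRS over NS averaged over strains, from -0.80 to 0.17 in WKY, and from -0.27 to 0.77 for WKY over F344 averaged over treatments. Bank1 moved from -0.78 to 0.16 for CRS over NS in WKY, from -0.35 to 0.17 for WKY over F344 averaged over treatments, from -0.68 to 0.37 without stress, from -0.41 to 0.43 after CRS, and from -0.41 to 0.65 for the difference in response.

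Without both NS F344 replicates 2 and 3, with replicate 1 taken to vary as the libraries elsewhere do, Cd79b was -0.11 for CRS over NS averaged over strains and -0.20 for WKY over F344 without stress. Bank1 was then 0.12 for CRS over NS in F344, 0.24 and 0.52 for WKY over F344 averaged and without stress, and -0.56 for the difference in response. Without the low count filter Cd79b was 0.0101 for WKY over F344 averaged, Bank1 0.13 without stress and -0.27 for the difference in response, and Pax5 0.0931 for CRS over NS averaged. Cd79b for WKY over F344 averaged was 0.0355 by DESeq2 and 0.0169 by limma-voom. Bank1 for WKY over F344 after CRS was 0.15 by limma-voom and 0.0435 with the replicate block. In alternatives chosen after seeing the data, Cd74 for CRS over NS in F344 was -0.0516 and the median of the receptor signalling list -0.0029 without both libraries. The cause of these changes was not tested.

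The replicate numbers are shared by all groups in the titles. Same-numbered libraries deviated together (correlation over 0.1) in 4 of 18 pairs, with a mean of 0.04. Libraries with different numbers did so in 2 of 36 pairs, with a mean of -0.02. These values do not settle whether the numbers pair the samples, and the main fit does not pair them. With the replicate block 0 B cell genes passed in any comparison, and Cd79b was 0.96 for CRS over NS in F344 (edgeR adjusted p = 0.819). Depth limits all of this: the 3 tested genes had 1 to 33 counts a library, and the log2 ratio of summed B cell genes for CRS over NS in F344 was 0.33 with TMM scaling and 0.75 without it. Likewise, 1 B cell gene in place of 2 did not overlap between CRS and NS in F344 without TMM scaling, Pax5, and 1 per 100000 counts outside the 3 most abundant features, Ms4a1; in the other 3 comparisons it was Pax5 alone under every scaling.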
